A study of Mus musculus with 4 samples.

Results

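The genes described here are the collagen chains, the enzymes that hydroxylate and crosslink them, the collagen chaperone and 5 matrix proteins that bind or accompany them. They were taken by symbol: every gene named as a numbered collagen chain, every Plod and Lox family gene, and Serpinh1, Sparc, Tnc, Fn1, Postn and Bgn. That rule found 32 of the 14159 genes analysed, and used no measured value. It meets 58 symbols in the GENCODE M21 annotation, among them 44 collagen chain genes of which 19 were analysed here, and the other symbols were not analysed here. The RNA-seq libraries are 4, all from uncultured primary mouse squamous cell carcinoma, 2 with the genotype control and 2 with the genotype KDM4A knockout; Kdm4a encodes a demethylase of histone H3. The labels give no strain, age, driver of the deletion or inducing agent. They describe the knockout as inducible, on the control libraries as well as the others, and do not say what alleles or agent the controls received. The control columns share 1 heading and are called a and b here.

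Collagens are trimers of chains wound into a triple helix. Chains are hydroxylated on proline and lysine and folded with the help of chaperones in the endoplasmic reticulum, trimmed after secretion, and crosslinked outside the cell by lysyl oxidases. In connective tissue most of them come from fibroblasts. Squamous epithelium makes its own small set, among them collagen XVII, a transmembrane protein of the hemidesmosomes that hold basal keratinocytes to the basement membrane, and collagens of the basement membrane itself.

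Levels are read as FPKM, fragments scaled to transcript length and to library size, although the deposited sheet is named CPM. FPKM allows levels of different genes to be compared, so comparisons between genes here rest on that reading. Pearson's correlation across genes on the log2(FPKM + 1) scale was 0.96 for the pair of controls and 0.958 for the pair of knockouts, and 0.888 to 0.903 for pairs of unlike genotype. Kdm4a had control levels of 29.6 and 27.7 FPKM and knockout levels of 14.9 and 14.7 FPKM, so its transcript was lower but present in the libraries labelled knockout (log2 fold change -0.91, SE 0.07, limma adjusted p = 0.000774). The squamous keratin genes Krt5 and Krt14 had control means of 2336 and 2247 FPKM, so the defining keratins of the labelled tissue were present. Of 10 fibroblast markers analysed, Twist1 had the highest mean, 23.2 FPKM, and the defining receptor gene Pdgfra lay between 1.64 and 2.20 FPKM in every library. Nothing in the labels says whether libraries came from separate animals, so the p-values here reflect spread among 4 libraries that could be technical in origin.

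The most abundant collagen genes were lower in knockout, and the fibrillar collagen genes were low in both groups. Tnc, Col17a1, Col18a1, Col4a2, Loxl2 and Loxl4 fell, and Plod1, Sparc and Fn1 rose, on a limma adjusted p under 0.05. These are 6 and 3 of the 21 members that reached at least 1 FPKM in at least 2 libraries and were tested. Of all 12046 genes tested, 33.8% were called lower and 30.1% higher, so calls were no more frequent among these genes than in the transcriptome (9 of 21, 42.9%, against 63.9%). The median log2 fold change was -0.03 over the tested members and -0.03 over all genes tested. Among all 32 members, both knockout libraries lay below both controls for 11 and above them for 8, where 40.2% and 39.2% of all 14159 genes did so. Of the 32 members, 11 were below the level tested.

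**Figure D1:**
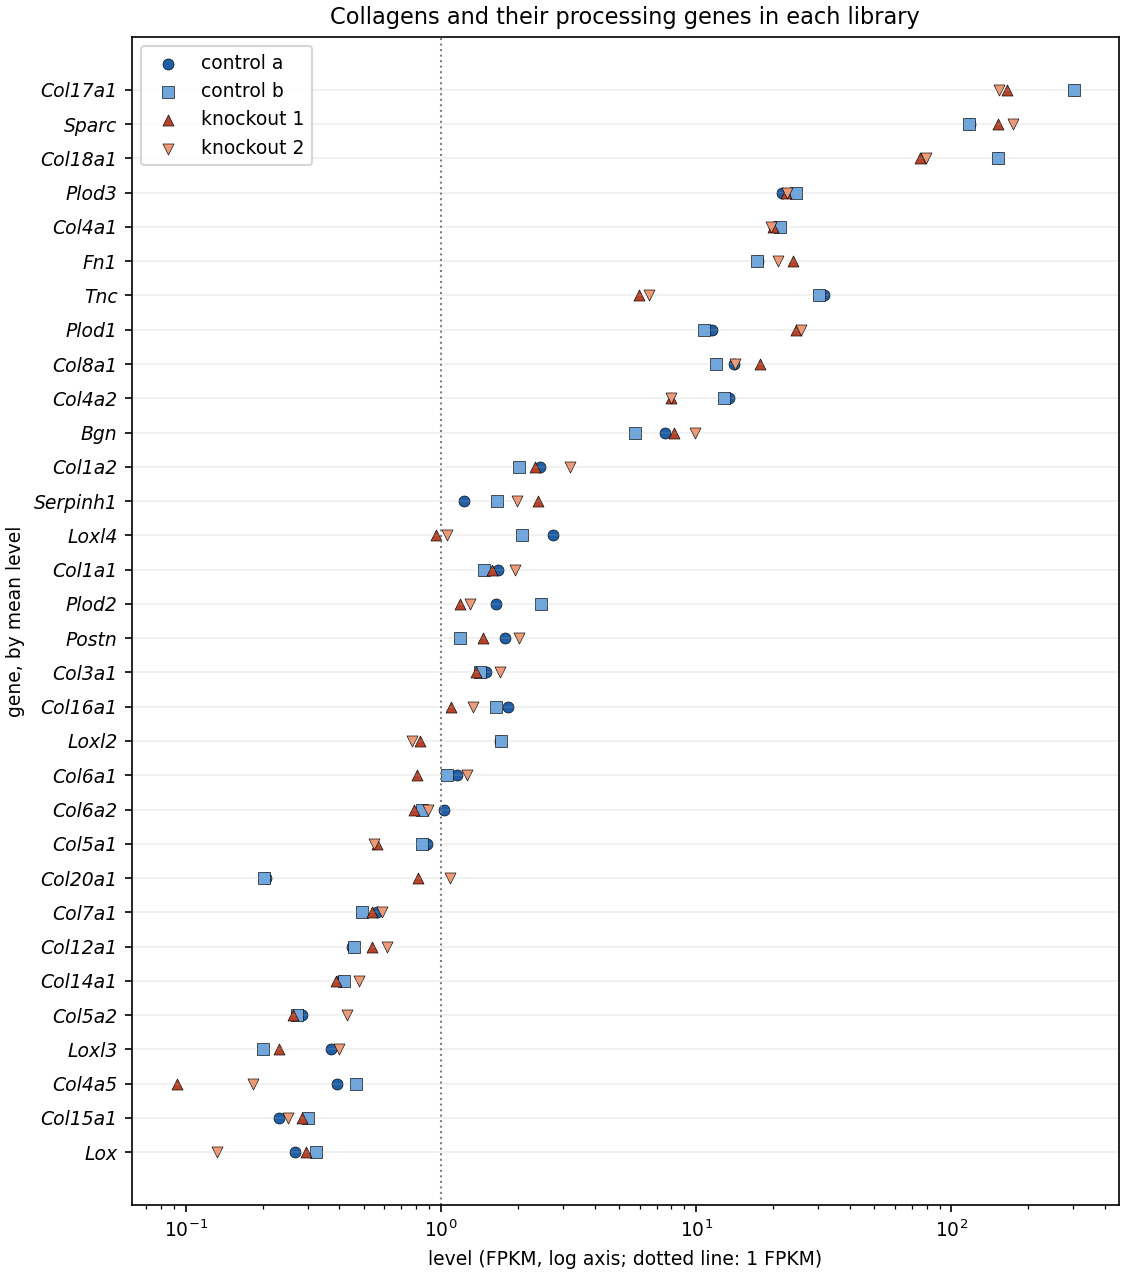
Level of each of the 32 genes in FPKM on a log axis, one row per gene and one symbol per library; the dotted line marks 1 FPKM. Col17a1 and Col18a1 stand highest among the collagens at 302 and 153 FPKM in control, with both knockout libraries to their left, whereas the chains of collagens I, III, V and VI lie near or below 1 to 3 FPKM in all 4 libraries.

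The promoters of Col17a1, Col18a1, Tnc and Plod1 are shown because these members had the largest changes among the well-expressed genes. The sequences are RefSeq's on GRCm38.p6, read 5′ to 3′ on the gene's minus strand, and each ends before the first base that GENCODE M21 annotates as an exon of the gene. Capitals mark the motif TATAAA, the motif CCAAT or the motif GGGCGG, read on either strand. The Col17a1 stretch is chr19:47692095-47692292, Col18a1 (the farther upstream of its 2 RefSeq starts) chr10:77166549-77166780, Tnc (the farther upstream of 2) chr4:64047016-64047265 and Plod1 chr4:147936777-147937026.
Col17a1: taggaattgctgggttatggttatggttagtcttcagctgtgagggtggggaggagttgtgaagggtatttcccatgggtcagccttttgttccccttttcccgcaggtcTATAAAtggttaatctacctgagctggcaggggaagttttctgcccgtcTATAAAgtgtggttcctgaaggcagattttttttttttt
Col18a1: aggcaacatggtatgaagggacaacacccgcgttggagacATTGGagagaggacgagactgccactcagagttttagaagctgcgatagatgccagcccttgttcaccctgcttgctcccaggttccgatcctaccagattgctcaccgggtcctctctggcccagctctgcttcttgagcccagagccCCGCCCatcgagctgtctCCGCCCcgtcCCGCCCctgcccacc
Tnc: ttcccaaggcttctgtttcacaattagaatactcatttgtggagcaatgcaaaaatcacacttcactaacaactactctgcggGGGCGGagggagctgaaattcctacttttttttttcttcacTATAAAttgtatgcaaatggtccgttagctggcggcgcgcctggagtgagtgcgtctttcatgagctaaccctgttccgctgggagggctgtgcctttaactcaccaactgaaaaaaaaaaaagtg
Plod1: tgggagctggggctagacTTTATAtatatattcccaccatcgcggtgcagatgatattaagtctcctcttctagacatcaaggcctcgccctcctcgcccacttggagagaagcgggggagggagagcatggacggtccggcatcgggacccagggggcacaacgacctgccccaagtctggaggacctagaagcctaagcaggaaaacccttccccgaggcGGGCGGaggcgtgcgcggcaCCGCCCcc

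The Col17a1 stretch held TATAAA 2 times and no GGGCGG, and the Col18a1 stretch held GGGCGG 3 times and no TATAAA. Tnc held both motifs once, and Plod1 held TATAAA once and GGGCGG 2 times. The AP-1 motif TGANTCA was in none of these 4 stretches. Windows of 250 bases before a RefSeq start were on hand for 23 of the 32 members, 27 windows in all. GGGCGG was in 59.3% of them against 32.7% of all 32851 windows, TATAAA in 22.2% against 12.4%, CCAAT in 33.3% against 33.8% and TGANTCA in 3.70% against 6.75%. Some member windows ran into annotated exons of members, that of Col4a1 over all its 250 bases. The 2 Tnc windows overlapped, so the same TATAAA and GGGCGG matches were counted in both. Both strands were searched. On opposite strands CCAAT can share end letters with GGGCGG; no matches shared letters in the stretches shown. These are matches of letters and not evidence of binding.

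Collagen XVII was the most abundant collagen. Col17a1 stood at 302 FPKM in both control libraries, rank 252 of all genes by control mean, and at 166 and 154 FPKM in knockout. Both knockout libraries lay far below both controls, which differed from each other by under 1 FPKM. Col17a1 fell from 302 ± 0.433 to 159.9 ± 7.99 FPKM (SD, n = 2), -0.91 in log2 units (SE 0.06, limma adjusted p = 0.000588). Col18a1, the chain of a basement membrane proteoglycan whose tail yields endostatin, was at 153 FPKM in both controls and at 75.7 and 79.8 FPKM in knockout. Its groups did not overlap either, and it fell by 0.97 on the log2 scale (SE 0.06, limma adjusted p = 0.000483). The gene has 2 annotated RefSeq starts, and the values do not separate their transcripts. In RNA of whole tumours, fewer cells of a type and less RNA per cell cannot be told apart.

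Markers of squamous epithelium moved with these genes. Of 11 such markers 9 were lower in knockout and none higher, with a median log2 fold change of -0.94. Of all genes tested, 33.8% were called lower and 30.1% higher. The summed level of the markers was 9489 to 9654 FPKM in control and 5184 to 5312 FPKM in knockout. The hemidesmosome integrin genes Itga6 and Itgb4, whose products sit beside collagen XVII, fell by 1.81 and 1.08 on the log2 scale (limma adjusted p = 0.000393 and 0.000467). Krt5 fell by 0.92 and Krt14 by 0.55, whereas the basal cell regulator Trp63 stood at 80.3 and 84.6 FPKM in control and 85.8 and 70.5 FPKM in knockout (-0.08, limma adjusted p = 0.528). Ratios to both keratins, chosen after the values were seen, differed in outcome. Col17a1 was at 13.1% and 12.7% of the Krt5 level in control and 12.9% and 13.0% in knockout, which overlap, and at 13.5% and 13.4% of the Krt14 level in control and 10.6% and 10.3% in knockout, which do not. The part of this marker shift in the change of the collagens was not tested.

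The sum over the 19 collagen chain genes came to 516 and 513 FPKM in control, against 298 and 290.5 FPKM in knockout. Col17a1 and Col18a1 together made up 88.2% and 88.7% of it in control and 80.9% and 80.6% in knockout. Without those chains the sums were 60.9 and 58.0 FPKM in control and 57.2 and 56.4 FPKM in knockout. The difference in summed collagen transcript therefore lay almost wholly in those chains.

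**Figure D2:**
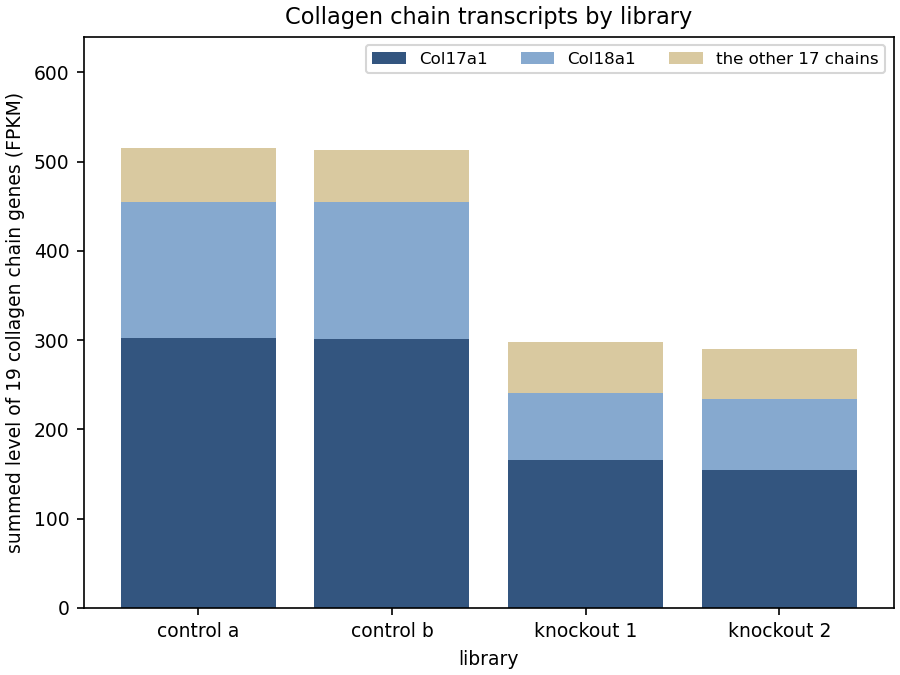
Summed FPKM of the 19 collagen chain genes in each library, as bars from 0 divided into Col17a1, Col18a1 and the other 17 chains. The control bars reach 516 and 513 FPKM and the knockout bars 298 and 290.5 FPKM, and the topmost block is between 56.4 and 60.9 FPKM in every library.

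The collagen IV genes of the basement membrane were uneven. Col4a1 and Col4a2 encode the partner chains of the ubiquitous collagen IV network, usually in trimers with more of the first chain than of the second. Col4a1 measured 20.3 and 21.3 FPKM in the controls against 19.9 and 19.6 FPKM in the knockouts. Its knockout values lay just under the controls, and the log2 difference of -0.07 (95% interval -0.25 to 0.12, limma adjusted p = 0.458) was not called. Col4a2 had control levels of 13.4 and 12.8 FPKM and knockout levels of 7.94 and 7.96 FPKM. It fell by 0.66 on the log2 scale (SE 0.08, limma adjusted p = 0.0024), and its groups were well apart. The level of Col4a2 was thus 0.664 and 0.604 times that of Col4a1 in control and 0.398 and 0.406 times in knockout. Col4a5, a chain of a more restricted network, was between 0.0923 and 0.464 FPKM and below the level tested, with both knockout libraries under both controls.

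Both genes start in the same place, on opposite strands of chromosome 8. Transcription of Col4a1 is annotated from 11312826 on the minus strand and that of Col4a2 from 11312805 on the plus strand of GRCm38, by RefSeq and GENCODE alike. Whether the authors' values kept strands apart is not known, so fragments from this short overlap could be given to either gene. The shared stretch, chr8:11312805-11312826, is 22 bases long and is given on the plus strand to show how little separates the starts.
Shared start: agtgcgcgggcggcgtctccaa

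Collagen VII, which forms the anchoring fibrils under the same membrane, was listed low. Col7a1 lay between 0.489 and 0.590 FPKM, overlapped between groups and was not tested. Col8a1, a short network-forming chain of vessels and other tissues, measured 14.1 and 12.0 FPKM in the controls against 17.8 and 14.2 FPKM in the knockouts, with the lower knockout value barely above the higher control value (log2 fold change 0.27, 95% interval -0.09 to 0.64, limma adjusted p = 0.148). Without knockout library 2 its adjusted p was 0.0485 and its log2 fold change 0.42.

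The chains of fibrillar collagens, the bulk of connective tissue collagen, were scarce. Col1a1 had control levels of 1.67 and 1.47 FPKM and knockout levels of 1.59 and 1.95 FPKM. Its partner Col1a2 measured 2.43 and 2.02 FPKM in the controls against 2.34 and 3.21 FPKM in the knockouts, and Col3a1 at 1.505 and 1.42 against 1.38 and 1.71 FPKM. The groups overlapped for all of these chains. Their log2 differences were 0.11 (95% interval -0.22 to 0.43), 0.22 (-0.19 to 0.63) and 0.04 (-0.27 to 0.36), with limma adjusted p of 0.49, 0.272 and 0.771. Collagen V chains, which set the width of collagen I fibrils, were below the level tested: Col5a1 at 0.879 and 0.845 FPKM in control and 0.560 and 0.547 FPKM in knockout, and Col5a2 between 0.262 and 0.429 FPKM. The 5 fibrillar chains together summed to between 6.02 and 7.84 FPKM in the 4 libraries, with control and knockout ranges overlapping. The transcript ratio of Col1a1 to Col1a2 was 0.685 and 0.730 in control and 0.679 and 0.606 in knockout. The protein trimer holds more of the first chain, but a transcript ratio at these low levels does not measure the protein chains.

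The remaining chains were low as well. Col6a1, of the beaded filaments around cells, lay between 0.809 and 1.26 FPKM with a log2 difference of -0.06 (limma adjusted p = 0.75), and its partner Col6a2 between 0.782 and 1.02 FPKM. Among chains that decorate fibrils, Col16a1 stood at 1.82 and 1.65 FPKM in control and 1.09 and 1.33 FPKM in knockout (-0.31, limma adjusted p = 0.0727; 0.0424 and called lower by eBayes without a trend, and -0.06 with the length trend removed), Col12a1 and Col14a1 lay between 0.388 and 0.617 FPKM, and Col20a1 at 0.207 and 0.203 FPKM in control and 0.815 and 1.09 FPKM in knockout. Of the 11 members below the level tested, Col20a1 was the 1 called when no filter was used (log2 fold change 0.69, limma adjusted p = 0.00977). Without the filter, 3599 of all 14159 genes were called higher and 4048 lower. Both control values of Col20a1 were far below 1 FPKM. Col15a1, a relative of Col18a1 found in vessel walls, lay between 0.233 and 0.302 FPKM and overlapped between groups.

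Of the 3 lysyl hydroxylase genes, whose products modify collagen before it leaves the cell, Plod1 was called and the others were not. Plod1, whose product hydroxylates lysines of the helix, had control levels of 11.5 and 10.7 FPKM and knockout levels of 24.7 and 25.9 FPKM, with no overlap. It rose to 2.28 times the control mean, 1.12 in log2 units (SE 0.08, limma adjusted p = 0.000605). Plod3, an enzyme that also glycosylates hydroxylysine, measured 21.7 and 24.7 FPKM in the controls against 22.6 and 22.7 FPKM in the knockouts, inside the control range (-0.03, 95% interval -0.26 to 0.20, limma adjusted p = 0.775). Plod2, which acts on the telopeptides where crosslinks form, had control levels of 1.65 and 2.47 FPKM and knockout levels of 1.19 and 1.30 FPKM (-0.43, limma adjusted p = 0.0682); without control library a the difference was -0.63 with an adjusted p of 0.0358. The Plod1 level was 0.528 and 0.433 times that of Plod3 in control and 1.09 and 1.14 times in knockout, so their order was reversed. Serpinh1, which encodes the collagen chaperone HSP47, measured 1.23 and 1.66 FPKM in the controls against 2.41 and 1.98 FPKM in the knockouts, with no overlap but no call (0.39, limma adjusted p = 0.0659).

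Of the lysyl oxidases, which oxidise lysines so that fibres crosslink, Loxl2 and Loxl4 were tested and both fell. Of all tested genes, 33.8% were called lower. Loxl2 was below 1 FPKM in both knockouts, so it passed the filter only through the controls and could be called only lower. Loxl4 reached 1 FPKM in both controls and 1 knockout. With no filter both were still called lower (limma adjusted p = 0.00985 and 0.01205), and Lox and Loxl3 were not called (0.516 and 0.853). Loxl2, which also crosslinks collagen IV, had control levels of 1.70 and 1.71 FPKM and knockout levels of 0.828 and 0.768 FPKM, -0.59 in log2 units (SE 0.11, limma adjusted p = 0.00692). Loxl4 measured 2.74 and 2.09 FPKM in the controls against 0.953 and 1.05 FPKM in the knockouts (-0.76, SE 0.14, limma adjusted p = 0.00712). Both knockout libraries were below both controls for each gene. These levels are close to 1 FPKM, so the log2(FPKM + 1) scale understates the ratios of means, 0.468 and 0.415. The call on Loxl2 was lost when the trend with transcript length was removed (-0.33, limma adjusted p = 0.052). Lox and Loxl3 lay between 0.133 and 0.397 FPKM, overlapped between groups and were not tested.

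Among the matrix proteins that accompany collagen, Tnc changed most. It encodes tenascin C, a matricellular glycoprotein of wounds and tumour margins that keratinocytes and fibroblasts both make. Tnc had control levels of 31.7 and 30.2 FPKM and knockout levels of 5.98 and 6.53 FPKM. It fell to 0.202 times the control mean, -2.14 in log2 units (SE 0.09, limma adjusted p = 0.000287). It was the 1 tested member called lower by at least 1 on the log2 scale, as 10.2% of all tested genes were. Plod1 was the 1 called higher by as much, as 6.82% of all tested genes were.

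Sparc, which encodes a collagen-binding glycoprotein made by many cell types, measured 119 and 117 FPKM in the controls against 152 and 174 FPKM in the knockouts. It rose by 0.46 on the log2 scale (SE 0.08, limma adjusted p = 0.00722), and was the most abundant member that rose. Fn1, the fibronectin gene, had control levels of 17.5 and 17.4 FPKM and knockout levels of 24.1 and 20.9 FPKM (0.34, SE 0.09, limma adjusted p = 0.0261). Fn1 was not called when either control was left out (adjusted p = 0.126 and 0.132). The proteoglycan gene Bgn measured 7.56 and 5.76 FPKM in the controls against 8.20 and 9.92 FPKM in the knockouts, without overlap and without a call (0.40, limma adjusted p = 0.0804). With quantile normalization Bgn was called (0.53, adjusted p = 0.0432). Postn, the periostin gene of activated fibroblasts, lay between 1.18 and 2.03 FPKM and overlapped between groups.

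**Figure D3:**
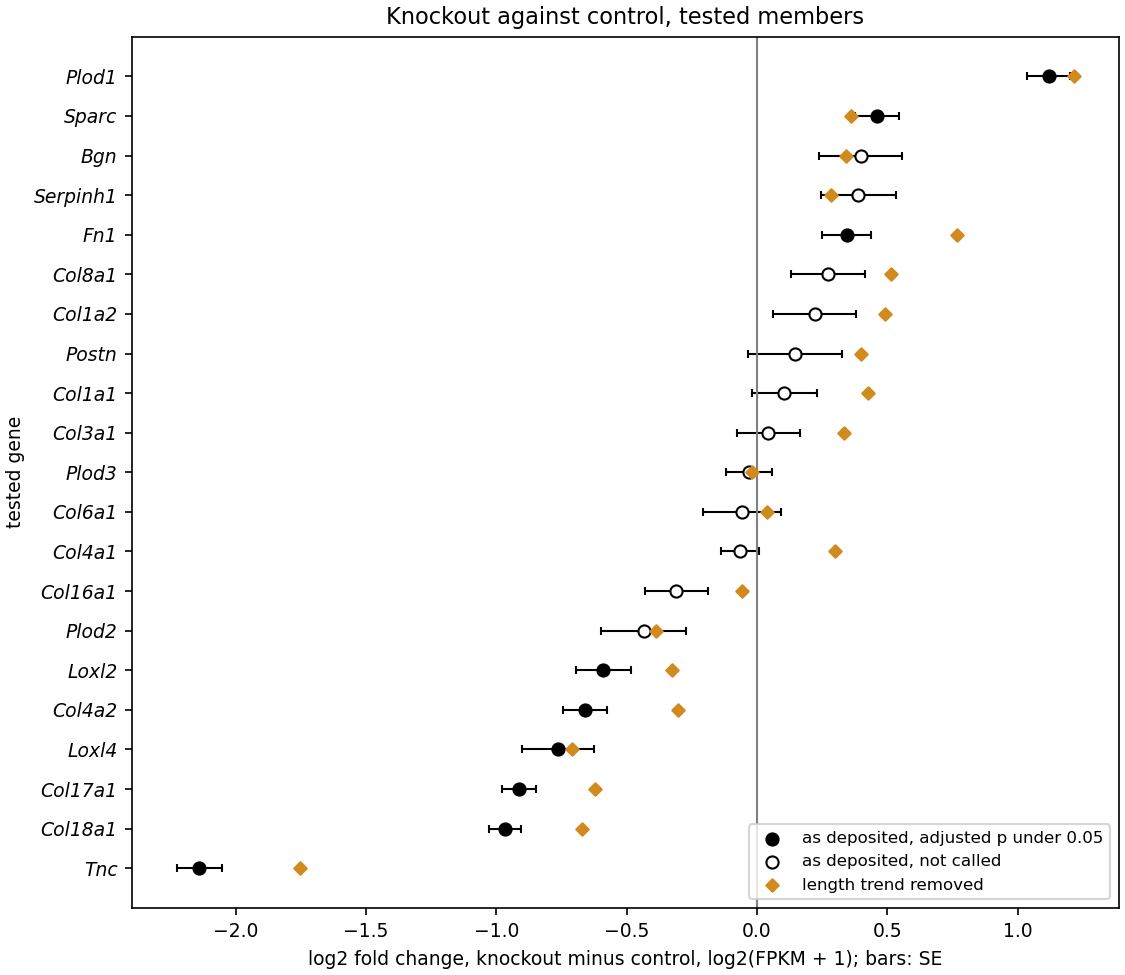
Log2 fold change of the 21 tested members, knockout minus control, on the log2(FPKM + 1) scale. Circles are values as deposited with bars of 1 SE, filled where the limma adjusted p was under 0.05, and diamonds are values after the trend with transcript length was removed. Tnc lies at -2.14 and Plod1 at 1.12, and the diamonds of all members but Serpinh1, Bgn and Sparc lie to the right of their circles, with Col4a1 moving from -0.07 to 0.30.

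Transcript length matters here because these transcripts are long. The median of the longest annotated transcript was 5223 nt over the tested members and 3255 nt over all tested genes. Fold changes fell with length across the transcriptome: their median was 0.19 below 1000 nt, -0.19 from 4000 to 6000 nt, -0.37 from 6000 to 8000 nt and -0.46 from 8000 nt. After this trend was taken out of each library, Tnc (-1.75), Col18a1 (-0.67), Col17a1 (-0.62), Loxl4 (-0.71) and Col4a2 (-0.30) were still called lower and Plod1 (1.22), Fn1 (0.77) and Sparc (0.36) still higher. Col8a1 (0.51, limma adjusted p = 0.0172) and Col4a1 (0.30, adjusted p = 0.0192) were then called higher as well, where 32.4% of all genes were called higher and 31.5% lower. Col4a1 thereby changed sign, while Col4a2 stayed below it. Col1a1, Col1a2 and Col3a1 stood at 0.43, 0.49 and 0.33 without a call (adjusted p = 0.0541, 0.0673 and 0.0955). The median over tested members was then 0.29, beside 0.01 over all genes.

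**Figure D4:**
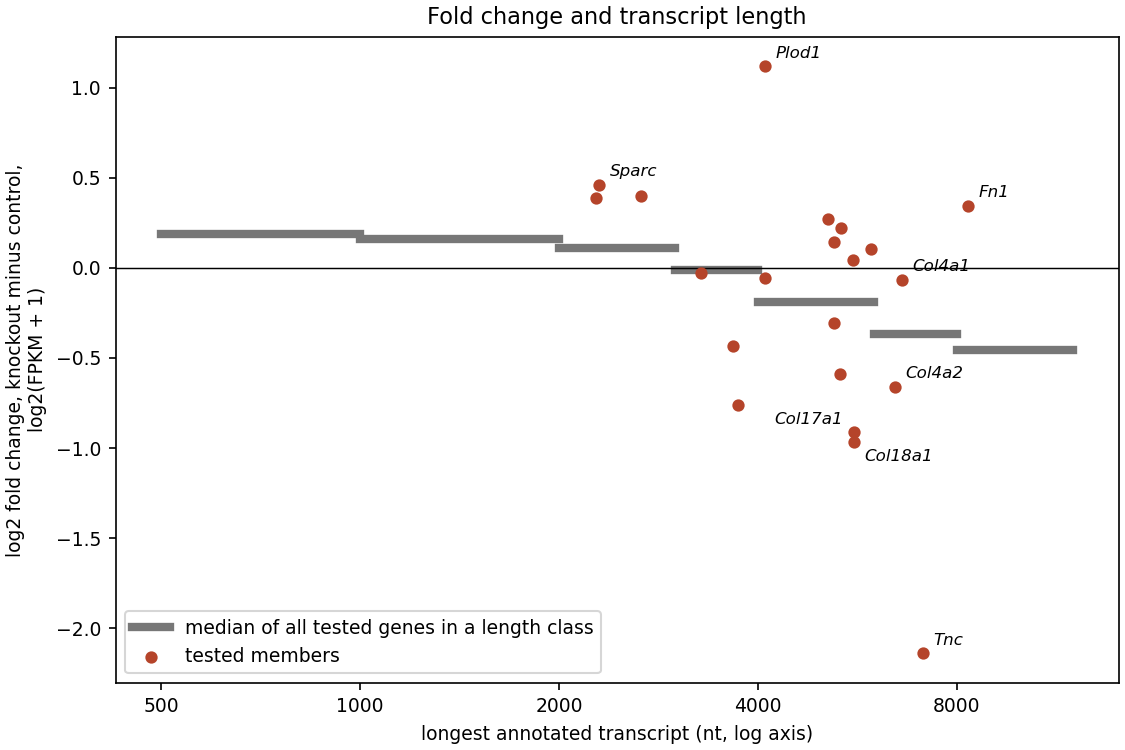
Log2 fold change of the tested members (points) against the length of the longest annotated transcript in nt on a log axis, with grey bars for the median of all tested genes in each of 7 length classes; the outermost bars stand for all shorter and all longer genes. The bars step down from 0.19 to -0.46, and Tnc, Col17a1 and Col18a1 lie below the bar of their class while Plod1 and Fn1 lie above it.

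Genes that act with the collagens were read from 5 further lists of 71 genes, of which 35 were tested; 6 rose and 13 fell, with a median log2 fold change of -0.09. That is 17.1% and 37.1%, beside 30.1% and 33.8% of all genes tested, and the 6 became 2 with control a left out and 3 with control b left out. Among genes that hydroxylate and fold procollagen, 2 of 10 rose and 3 fell. P4ha1, the catalytic subunit of a prolyl 4-hydroxylase, had control levels of 14.4 and 18.1 FPKM and knockout levels of 35.4 and 33.9 FPKM (1.06, limma adjusted p = 0.00178), and P3h2, a prolyl 3-hydroxylase of collagen IV, at 20.1 and 20.4 against 7.21 and 7.40 FPKM (-1.36, adjusted p = 0.000433). In secretion and trimming 1 of 6 rose and 3 fell. Bmp1, the C-propeptide protease, fell by 0.74, and its enhancer Pcolce rose by 0.59, with a difference of 0.53 that was not called when control a was left out (adjusted p = 0.0597).

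Of 8 collagen receptor genes analysed, 4 were tested and all 4 fell, namely Itga1, Itga2, Ddr1 and Itgb1. The last pair was named after the values were seen. Of all tested genes, 33.8% were called lower. Itga2 was below 1 FPKM in both knockouts, so it was tested only through its control levels. Of the untested receptors, at low levels, Itga10, Ddr2 and Lair1 had both knockouts above both controls, and Mrc2 had both below. Among all genes in the data, 39.2% had both knockouts above both controls and 40.2% had both below. Itga1, the integrin subunit that binds collagen IV, went from 8.98 and 9.46 FPKM in control to 2.17 and 2.24 FPKM in knockout (-1.67, limma adjusted p = 0.000434), and Itga2 fell by 1.06, Ddr1 by 0.68 and Itgb1 by 0.37. Of 5 tested proteoglycan genes 2 fell, namely Hspg2, the perlecan gene of basement membranes (46.3 ± 1.30 to 21.1 ± 0.491 FPKM, SD, n = 2; -1.10, limma adjusted p = 0.000474), and Omd (-1.42). Omd was below 1 FPKM in both knockouts, so it too was tested only through its control levels. Of 10 elastic fibre and glycoprotein genes 3 rose and 1 fell. Thbs1, which encodes thrombospondin 1, rose by 0.89 and Ltbp1, which tethers latent TGF-beta to the matrix, fell by 1.53.

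Markers of other cells had the following values, in which each sum is over all markers of a list in the table, tested or not. Beside them, 30.1% of all tested genes were called higher and 33.8% lower. Of 7 tested fibroblast markers 2 rose, Thy1 (1.04) and Twist2 (0.73), and Twist1 fell by 0.38. Twist2 was below 1 FPKM in both controls, so it was tested only through its knockout levels. All 10 fibroblast markers analysed summed to 37.2 to 37.6 FPKM in control and 36.0 to 36.3 FPKM in knockout. Without Twist1, an omission chosen after the values were seen, the other 9 summed to 11.4 and 10.8 FPKM in control and 15.4 and 16.8 FPKM in knockout, so the direction turned. Of 5 smooth muscle and pericyte markers Mcam rose by 1.40 and Notch3 fell by 1.37 (sums over 9 of 22.2 to 23.5 and 24.9 to 27.6 FPKM). Of 4 endothelial markers 2 rose, among them Egfl7 (0.70), and Flt1 fell by 0.75 (sums over 11 of 22.4 to 23.0 and 29.2 to 34.1 FPKM). Macrophage markers rose in 6 of 9, among them Cd68 (0.78) and C1qc (0.43; adjusted p = 0.0607 and 0.0587 with control a or b left out), and the sum over 10 was 542 to 583 FPKM in control and 724 to 847 FPKM in knockout. All 6 tested salivary gland markers rose, among them Pip (5.995) and Amy1 (5.01). The sums over 7 were 7.07 to 37.2 FPKM in control and 1079 to 4852 FPKM in knockout. Of these markers, Pip, Dcpp1 and Dcpp3 were below 1 FPKM in both controls. They passed the filter only through the knockouts and so could be called only higher. Smr3a reached 1 FPKM in 1 control, and Amy1 and Bpifa2 did in all libraries. None of 10 skeletal muscle markers was called (Myh4 0.13 and Pvalb 0.37, limma adjusted p = 0.457 and 0.0535; sums over 10 of 289 to 323 and 287 to 363 FPKM). Pvalb was called with a pseudocount of 5, with median-ratio scaling and by eBayes without a trend (adjusted p = 0.0498, 0.0491 and 0.0358), and with the length trend removed 2 muscle markers, Ttn (0.69) and Neb (0.77), were called higher. Of 3 adipocyte markers Fabp4 fell by 0.62 and Cfd stood at -1.02 (adjusted p = 0.0959; sums over 5 of 25.0 to 38.5 and 13.4 to 21.01 FPKM). The Fabp4 call was lost with quantile normalization, with the length trend removed and with control a or b left out (adjusted p = 0.0586, 0.0590, 0.0746 and 0.0746), and Cfd was at -1.61 and called without control a (adjusted p = 0.00883) and at -0.43 without control b. Of 2 cartilage and bone markers Sox9 fell by 0.32 and Runx2 stood at -0.09 (adjusted p = 0.676; sums over 3 of 24.2 to 27.6 and 19.8 to 22.9 FPKM). The Sox9 call was lost with quantile normalization (adjusted p = 0.0714), with the length trend removed (0.0729) and without control a, control b or knockout 2 (0.247, 0.0794 and 0.0814). No marker analysed was at 0 in all libraries. The part of these cells in the values of the collagen genes was not tested.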

How the data were processed

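Polyadenylated RNA of 4 tumour libraries, 2 control and 2 Kdm4a knockout, was made into stranded libraries, per the labels' protocols. The authors deposited 1 table, read here as FPKM from Cufflinks although its sheet is named CPM. Its columns sum to between 592300 and 626700, which does not settle the unit. TopHat, Cufflinks and mm9 are named in the submitters' processing notes; their versions, the gene models and whether strands were kept apart are not stated in what was used here. The depth is unknown, so no counting interval is given. A count test was set for the case of whole-number counts and was not needed.

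A gene entered the fit when 2 or more libraries reached 1 FPKM; values were fitted as log2(FPKM + 1) with limma 3.58.1 in R 4.3.3 (eBayes with a trend, 2 residual and 2.93 prior degrees of freedom), knockout against control without covariates, two-sided, with Benjamini-Hochberg adjustment over 12046 genes and a threshold of 0.05. The fit was also run on simulated data in which few genes changed, unlike these data, so that run does not show how the p-values behave here. Intervals are 95% intervals from the moderated standard error. Lengths came from GENCODE M21 on GRCm38 (99.1% of genes matched), not the authors' models; the length trend was a lowess curve of span 0.3 on log2 length.

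All members are accounted for. Values in each library were printed for members that were called or had a group mean of at least 5 FPKM. Other members so printed were chosen after their values were seen. From each further list the 2 genes with the smallest p were named. Other list genes were named after their values were seen. These were Krt5, Krt14, Trp63, Twist1, Pdgfra, Ddr1, Itgb1, Itga10, Ddr2, Lair1, Mrc2, Ttn, Neb, Dcpp1, Dcpp3, Smr3a and Bpifa2. The members and lists were chosen with earlier results of these data known. Alternatives were the pseudocount, the filter, the scaling, the length trend, the eBayes settings and leaving out each library.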

Additional observations from a re-analysis of the deposited data

How the results depend on the processing

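Tnc, Col17a1, Col18a1, Col4a2, Loxl4, Plod1 and Sparc kept their direction and their call under every alternative in which they were tested. When the length trend was removed 5 members were higher, not 3, and the median log2 fold change of tested members was 0.29, not -0.03; it was 0.013 with no filter, 0.027 with quantile normalization and -0.051 to 0.10 with 1 library left out, where a lone library is assumed to vary like the other group. With 1 library left out, members higher numbered 2 to 4 and related matrix genes higher 2 to 6 (2 without control a, 3 without control b), not 6.

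Several small differences without a call changed sign. With 1 library left out the range was -0.032 to 0.32 for Postn, -0.051 to 0.14 for Col3a1, -0.12 to 0.058 for Plod3, -0.22 to 0.10 for Col6a1, -0.30 to 0.12 for Runx2 and -0.050 to 0.31 for Myh4. With quantile normalization Plod3 stood at 0.027, Col4a1 at 0.0070 and Runx2 at 0.020. With the length trend removed Col4a1 stood at 0.30, Col6a1 at 0.039 and Runx2 at 0.26. The cause was not tested. No paired analysis was possible because both control columns carry the same name and so no replicate number of their own.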
